A study of Mus musculus with 12 samples.

Results

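The constitutive proteasome subunits are the genes of the standard proteasome, the large protease that degrades ubiquitin-tagged proteins in every cell. They were taken as all genes whose symbol, matched from the RefSeq accession of a probe, starts with Psma, Psmb, Psmc or Psmd and a number, without the immunoproteasome subunits Psmb8, Psmb9 and Psmb10. The rule named 36 genes on the array, and 35 of them were kept among 18403 genes by a filter for probes well above background on every array of at least 1 group. Psmb11, a catalytic subunit made in the thymus, was not well above background on any array and was left out. Psmc3ip is caught by the letters of its symbol, but its product is a partner protein that acts in meiotic recombination and not a proteasome subunit, so counts are given with it and it is described apart. The other 34 kept genes are 7 alpha-ring, 7 beta-ring, 6 base ATPase, 3 base non-ATPase and 8 lid subunits and 3 chaperones of base assembly.

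Bone marrow cells of female mice aged 6 to 8 weeks were grown with GM-CSF, a growth factor that drives dendritic cell development, at 20 ng/ml. Non-adherent and loosely adherent cells of day 7 served as immature dendritic cells, the sentinel cells that take up and present antigen. They were given 300 µg/ml of nanoparticles of poly(γ-glutamic acid), named γ-PGA NPs in the labels, for 6, 12 or 24 h, and cells labelled 0 h stood for the start. Each of the 4 times had 3 samples, described as independent experiments, on 1-colour Agilent arrays, and no strain is given. No unexposed culture of 6, 12 or 24 h was analysed here, so exposure and time in culture cannot be told apart.

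The proteasome is built of a barrel-shaped core particle and a regulatory particle that caps it. The outer alpha rings of the core form the gate, and the inner beta rings hold the catalytic sites. The regulatory particle has a base, whose ring of ATPases unfolds substrates, and a lid, which removes ubiquitin chains. In dendritic cells, proteasomal peptides feed MHC class I presentation, and inflammatory signals replace the catalytic subunits Psmb5, Psmb6 and Psmb7 by the immunoproteasome subunits Psmb8, Psmb9 and Psmb10. Proteasome subunit genes are known to be induced together by the transcription factor NRF1, encoded by Nfe2l1, when proteasome capacity is short.

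Values came from 2 deposited sources, which were fitted apart. Scanner levels are the log2 processed signal minus the 75th percentile of its array, and the value table holds for each probe a ratio to 0 h, given here as log2. Changes are differences of log2 means with their SE, tested with limma and Benjamini-Hochberg adjustment over all 18403 genes, and a gene passed at an adjusted p under 0.05. Between 50.9% and 59.6% of spots per array were well above background. Apart from 1 outlier spot of Psma4, every kept proteasome gene was well above background on all 12 arrays, so none passed the filter through a single group. For scanner levels, the mean Pearson's r of the 24 h label was 0.991 with 0 h, 0.923 with 6 h and 0.91 with 12 h. For the table's ratios it was 0.739 with 6 h and 0.895 with 12 h, and none was computed with 0 h. Levels and ratios are unlike measures, so these r values can be compared only within a source. Against 0 h, 2.29% of all genes passed as higher under the 24 h label by the scanner and 41.3% in the table. Among the 0 h arrays themselves the mean r of scanner levels was 0.995. The sources thus differ at 24 h, and values under that label are given per source. Which source carries the right 24 h label could not be settled. The arrays lay on 3 slides. The first had every 0 h array and replicate 1 of 6 h. On the second were the other 6 h arrays and replicates 1 and 2 of 12 h, and on slide 3 the last 12 h array and every array labelled 24 h. That spot lay on 6 h replicate 2, so the scanner fit of that gene at 6 h rests on 2 arrays.

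Over the 4 times all 35 members passed limma's F test in each source, as did 85.1% of all genes by the scanner and 86.1% in the table. Nearly the whole set was higher after 6 h of exposure. In the scanner values 33 of 35 members passed as higher than at 0 h, against 32.1% of all genes, and 2 passed as lower, against 39.6%. At least 2-fold rises were passed by 18 members, against 10.2% of all genes. The median log2 change of the members was 1.01, with the middle 50% between 0.69 and 1.25, while the median of all genes was -0.059. In the value table, 33 members passed as higher, against 40.9% of all genes, and 1 as lower, against 30.3%, and 13 passed with at least 2-fold, against 13.2%. Their median there was 0.90, beside 0.14 over all genes. Ranked among all genes by the change at 6 h, 31 of the 35 lay above the upper end of the middle 50% of all genes in each source, and the median member stood at percentile 89.7 by the scanner and 83.9 in the table. Such levels of bulk RNA cannot tell more RNA per cell from a larger share of the cells that hold it.

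At 12 h the set was still high. In the scanner values 33 members passed as higher than at 0 h, against 36.2% of all genes, and 2 as lower, against 39.5%, with 15 at least 2-fold higher, against 13.7%. The median change was 0.94, beside -0.030 over all genes. In the table, 34 passed as higher, against 47.1%, and 1 as lower, against 26.8%, with 11 at least 2-fold higher, against 15.7%, and a median of 0.87 beside 0.22. On single arrays the median member stood 1.07, 0.95 and 1.06 above its 0 h mean at 6 h, and 0.95, 0.96 and 0.91 above it at 12 h in the scanner values. The arrays of 6 and 12 h thus lay close together and apart from those of 0 h, whose medians were between -0.0058 and 0.0086. Under quantile normalization between arrays the scanner counts were 33 higher at 6 h and 28 at 12 h, with 12 and 5 of at least 2-fold, and the table's were 16 and 12 higher, with 5 and 2 of at least 2-fold. The share of all genes passing as higher was then 35.7% at 6 h and 36.6% at 12 h by the scanner. In the table it was 10.7% at 6 h and 11.1% at 12 h, down from 40.9% and 47.1%. The share at least 2-fold higher was not counted. Quantile normalization gives every column the same spread, although the table's columns of 0 h lie near a ratio of 1. How far this widened differences among those columns was not measured. Why calls in the table were lost or reversed under it, here and below, was not tested. With the median of each column set equal, the table's count of at least 2-fold at 12 h was 5.

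**Figure D1:**
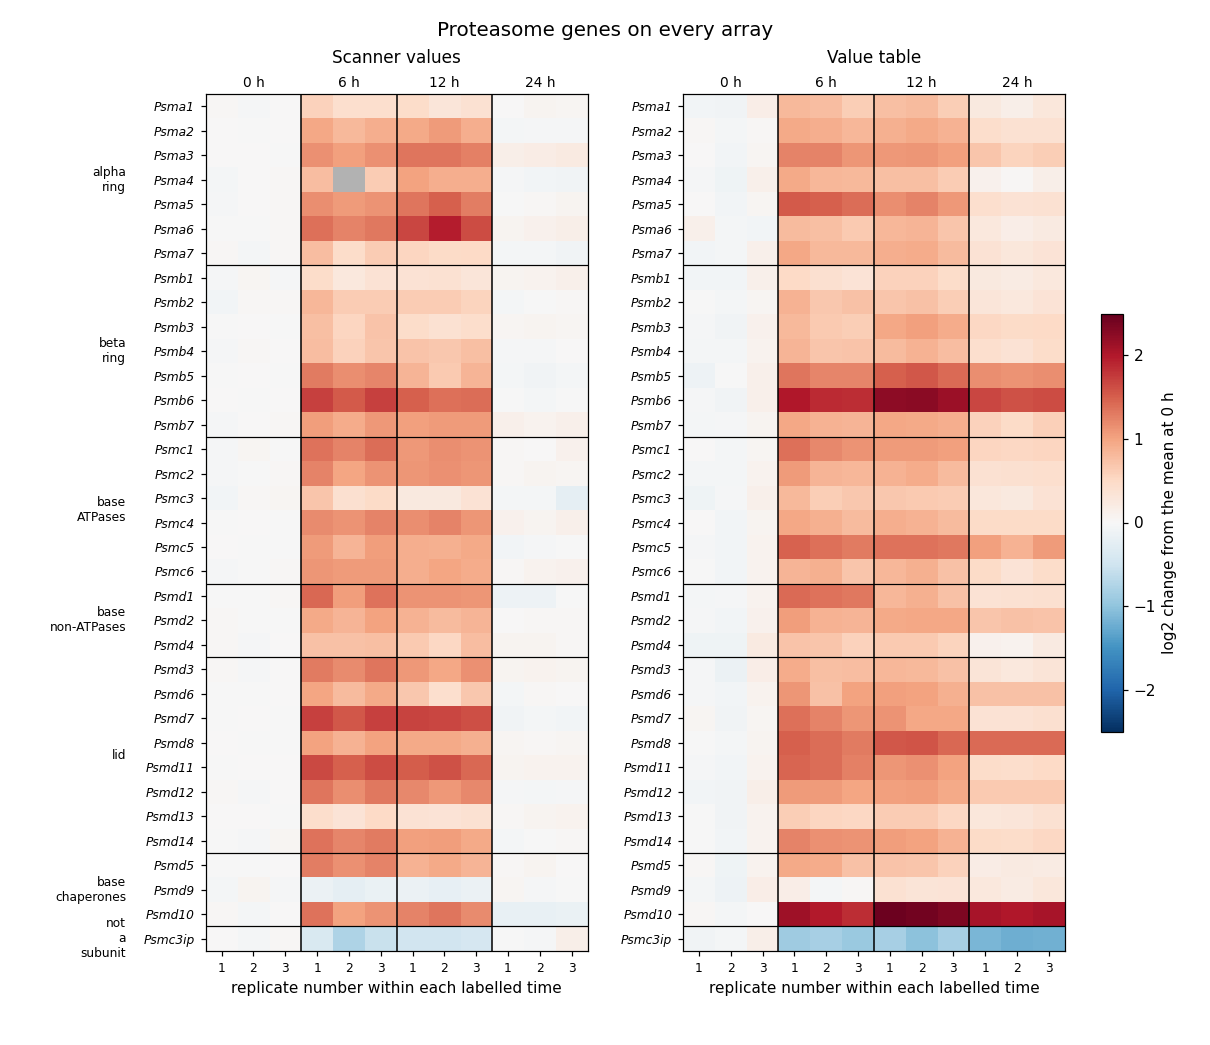
Heat map of the log2 change from the mean at 0 h (colour) for the 35 kept genes (rows, grouped by role) on each array or table column (columns, 3 replicates at each labelled time), with the outlier spot of Psma4 in grey. In the scanner values the columns of 6 and 12 h are red for all genes but Psmd9 and Psmc3ip and those labelled 24 h are near white, whereas in the value table the columns labelled 24 h keep a paler red for most genes.

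The promoters of 29 kept genes were in the RefSeq table of build GRCm38.p6, which gives 250 bases before to 50 after each start. They were searched for the core of the antioxidant response element, TGACNNNGC, to which NRF1 and the related NRF2 bind with small MAF proteins, and for the CCAAT box, on both strands. The element core was in 5 of 29 members' promoters, 17.2%, against 14% of 27025 genes, and CCAAT was in 12, 41.4%, against 41.1%. Psmb5, Psmb6 and Psmd9 had the core within 60 bases of the start, and Psmc6 and Psmd12 had it farther off. The 3 promoters with the core near the start are shown. Beside them is that of Psmd11, the member with the largest scanner rise at 6 h among those searched with no match. Psmd11 was thus picked by its change, a choice made after the values were seen. Psmd7, which rose most by the scanner at 6 h, had no promoter to search. Each is written 5′ to 3′ on the gene's strand, with the core in capitals.
Psmb6, chr11:70525107-70525406, plus strand: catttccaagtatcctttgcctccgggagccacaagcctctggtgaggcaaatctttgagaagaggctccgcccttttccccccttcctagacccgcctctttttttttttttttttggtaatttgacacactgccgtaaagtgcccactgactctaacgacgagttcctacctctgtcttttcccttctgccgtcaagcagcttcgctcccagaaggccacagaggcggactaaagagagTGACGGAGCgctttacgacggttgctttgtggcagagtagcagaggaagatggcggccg
Psmb5, chr14:54617946-54618245, minus strand: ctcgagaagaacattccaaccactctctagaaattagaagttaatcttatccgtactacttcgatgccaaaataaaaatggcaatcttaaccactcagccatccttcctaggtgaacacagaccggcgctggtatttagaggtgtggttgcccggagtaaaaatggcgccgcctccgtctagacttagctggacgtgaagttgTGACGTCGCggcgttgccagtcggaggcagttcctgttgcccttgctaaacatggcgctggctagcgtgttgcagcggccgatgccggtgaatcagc
Psmd9, chr5:123227940-123228239, plus strand: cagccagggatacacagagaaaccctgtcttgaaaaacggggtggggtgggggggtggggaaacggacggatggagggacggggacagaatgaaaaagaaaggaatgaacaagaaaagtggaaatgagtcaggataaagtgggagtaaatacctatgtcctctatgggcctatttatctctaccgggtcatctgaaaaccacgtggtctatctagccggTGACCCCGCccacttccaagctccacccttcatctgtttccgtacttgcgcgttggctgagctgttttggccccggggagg
Psmd11, chr11:80428365-80428664, plus strand: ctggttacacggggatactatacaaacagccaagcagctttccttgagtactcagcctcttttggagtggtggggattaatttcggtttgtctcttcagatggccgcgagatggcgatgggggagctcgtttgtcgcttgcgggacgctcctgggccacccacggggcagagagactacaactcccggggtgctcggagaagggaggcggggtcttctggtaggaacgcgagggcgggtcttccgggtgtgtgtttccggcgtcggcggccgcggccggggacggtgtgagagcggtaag
Psmb6 and Psmb5, with the core, changed by 1.65 and 1.22 at 6 h in the scanner values. Psmd9, also with the core, changed by -0.18, and Psmd11, with no match in this window, by 1.59. A match of letters is not a binding site, and the window says nothing of sites outside it. Whether the core bears on these changes was not tested.

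All 7 alpha-ring subunits rose at 6 h and at 12 h in both sources. Their median change at 6 h was 0.90 by the scanner and 0.87 in the table, and at 12 h 0.98 and 0.87. Psma6 moved most by the scanner, with levels of 4.55, 4.55 and 4.60 at 0 h, 5.95, 5.82 and 5.90 at 6 h, 6.24, 6.53 and 6.21 at 12 h, and 4.64, 4.67 and 4.72 on the arrays labelled 24 h. All of its arrays at 6 and 12 h were above those at 0 h, and the change was 1.32 ± 0.077 at 6 h (limma adjusted p = 1.17e-07) and 1.76 ± 0.077 at 12 h (limma adjusted p = 1.02e-08). The value table gave it a smaller rise, of 0.73 ± 0.068 and 0.79 ± 0.068. Psma3 stood at 3.54, 3.53 and 3.52 at 0 h, 4.66, 4.55 and 4.67 at 6 h, 4.87, 4.86 and 4.79 at 12 h, and 3.68, 3.72 and 3.74 on the arrays labelled 24 h. It rose by 1.10 ± 0.043 and 1.31 ± 0.043 in the scanner values and by 1.19 ± 0.057 and 1.07 ± 0.057 in the table, at least 2-fold at both times in both sources. Psma5 read 6.09, 6.13 and 6.14 at 0 h, 7.27, 7.18 and 7.25 at 6 h, 7.45, 7.60 and 7.39 at 12 h, and 6.12, 6.15 and 6.20 on the arrays labelled 24 h. Its spot was saturated on 2 of the 3 arrays at 12 h, where the rise of 1.36 ± 0.056 may fall short of the true one, after 1.11 ± 0.056 at 6 h, and the table gave 1.48 ± 0.058 at 6 h and 1.16 ± 0.058 at 12 h. The smallest alpha-ring rise by the scanner was that of Psma1, 0.47 ± 0.054 at 6 h and 0.38 ± 0.054 at 12 h. Between these lay Psma2 with 0.90 and 0.98, Psma4 with 0.71 (2 arrays) and 0.94, and Psma7 with 0.63 and 0.51.

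The 3 catalytic subunits of the beta ring rose more than the 4 others in the scanner values at 6 h. Psmb6, whose site cuts after acidic residues, read 5.48, 5.46 and 5.49 at 0 h, 7.19, 7.01 and 7.19 at 6 h, 6.96, 6.85 and 6.88 at 12 h, and 5.46, 5.43 and 5.46 on the arrays labelled 24 h. Its 6 h arrays, 1 of them saturated, were all above its 12 h arrays, and those all above 0 h, and the rise was 3.14-fold at 6 h (1.65 ± 0.054, limma adjusted p = 1.44e-09) and 2.67-fold at 12 h (1.42 ± 0.054). In the value table the log2 ratios of Psmb6 were 0.00, -0.059 and 0.15 at 0 h, 2.03, 1.89 and 1.88 at 6 h, 2.26, 2.28 and 2.17 at 12 h, and 1.70, 1.63 and 1.65 in the columns labelled 24 h. There it rose 3.74-fold at 6 h and 4.61-fold at 12 h and stood 3.09-fold higher under the 24 h label. Psmb5, the chymotrypsin-like subunit that proteasome inhibitor drugs bind, had scanner levels of 4.34, 4.35 and 4.33 at 0 h, 5.63, 5.50 and 5.56 at 6 h, 5.18, 5.00 and 5.19 at 12 h, and 4.29, 4.25 and 4.29 on the arrays labelled 24 h. It rose by 1.22 ± 0.056 at 6 h and 0.79 ± 0.056 at 12 h, and its 12 h arrays were all below its 6 h arrays. The table's log2 ratios for Psmb5 were -0.12, 0.00 and 0.13 at 0 h, 1.35, 1.23 and 1.22 at 6 h, 1.49, 1.55 and 1.42 at 12 h, and 1.16, 1.13 and 1.17 in the columns labelled 24 h, with changes of 1.26 ± 0.069 and 1.48 ± 0.069, so the order of the later times differed between the sources. Psmb7, the trypsin-like subunit, read 2.57, 2.61 and 2.63 at 0 h, 3.64, 3.53 and 3.68 at 6 h, 3.63, 3.67 and 3.68 at 12 h, and 2.72, 2.69 and 2.73 on the arrays labelled 24 h by the scanner and -0.012, 0.00 and 0.10 at 0 h, 0.99, 0.90 and 0.88 at 6 h, 0.99, 0.98 and 0.94 at 12 h, and 0.60, 0.51 and 0.62 in the columns labelled 24 h in the table. It rose at both times in both sources, with 1.01 ± 0.044 and 1.06 ± 0.044 by the scanner and 0.90 ± 0.052 and 0.94 ± 0.052 in the table. The structural subunits Psmb1, Psmb2, Psmb3 and Psmb4 all passed as higher at both times in both sources, from 0.36 for Psmb1 to 0.70 for Psmb2 at 6 h and from 0.34 for Psmb1 to 0.72 for Psmb4 at 12 h by the scanner. Under quantile normalization the 12 h scanner change of Psmb1 was -0.095, passing as lower, and those of Psmb3 and Psma1 were -0.0044 and -0.075, neither passing. In the table the changes of Psmb1 under it were -0.068 at 6 h and -0.042 at 12 h, neither passing.

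All 6 ATPases of the base passed as higher at 6 h and at 12 h in both sources, with scanner medians of 1.10 and 1.03 and table medians of 0.90 and 0.86. Psmc1, one of the subunits whose tail docks into the alpha ring, read 3.92, 3.99 and 3.94 at 0 h, 5.31, 5.19 and 5.34 at 6 h, 5.04, 5.11 and 5.06 at 12 h, and 3.98, 3.96 and 4.06 on the arrays labelled 24 h. It rose by 1.33 ± 0.049 at 6 h and 1.12 ± 0.049 at 12 h by the scanner and by 1.24 ± 0.061 and 1.05 ± 0.061 in the table. Psmc4 had levels of 3.58, 3.60 and 3.59 at 0 h, 4.77, 4.72 and 4.84 at 6 h, 4.76, 4.83 and 4.69 at 12 h, and 3.70, 3.65 and 3.71 on the arrays labelled 24 h. Its arrays at 6 and 12 h overlapped with each other and were all above 0 h, with changes of 1.19 ± 0.046 and 1.17 ± 0.046. Psmc2 read 4.64, 4.66 and 4.69 at 0 h, 5.90, 5.64 and 5.79 at 6 h, 5.76, 5.81 and 5.76 at 12 h, and 4.69, 4.72 and 4.71 on the arrays labelled 24 h, and Psmc6 read 4.33, 4.33 and 4.38 at 0 h, 5.46, 5.41 and 5.41 at 6 h, 5.26, 5.34 and 5.28 at 12 h, and 4.38, 4.44 and 4.45 on the arrays labelled 24 h. Psmc2 rose by 1.12 ± 0.059 and 1.11 ± 0.059, and Psmc6 by 1.08 ± 0.038 and 0.95 ± 0.038. Psmc5 rose by 0.98 and 0.91 by the scanner and by more, 1.38 and 1.34, in the table. Psmc3 had the smallest rise of the ATPases in both sources, 0.53 ± 0.083 at 6 h (limma adjusted p = 0.000214) and 0.29 ± 0.083 at 12 h (limma adjusted p = 0.00937) by the scanner.

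Of the non-ATPase subunits of the base, Psmd1 and Psmd2 are the large scaffold subunits and Psmd4 is a ubiquitin receptor, and all 3 rose at both times in both sources. Psmd1 read 2.22, 2.21 and 2.25 at 0 h, 3.66, 3.27 and 3.58 at 6 h, 3.34, 3.34 and 3.32 at 12 h, and 2.10, 2.11 and 2.21 on the arrays labelled 24 h. Among the 6 h arrays replicate 2 was the lowest, with an SD of 0.205 at that time, the highest of the set, but all were above 0 h, and the rise was 1.28 ± 0.086 at 6 h and 1.11 ± 0.086 at 12 h. In the table Psmd1 rose by 1.36 ± 0.055 and 0.81 ± 0.055. Psmd2 rose by 0.94 and 0.84 and Psmd4 by 0.74 and 0.65 by the scanner. Under quantile normalization the table's changes of Psmd4 were -0.067 and -0.17, neither passing.

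The median change of the lid at 6 h was 1.28 by the scanner and 1.10 in the table, and all 8 of its subunits passed as higher at both times in both sources. Psmd7, a structural partner of the deubiquitinase, had levels of 2.76, 2.79 and 2.77 at 0 h, 4.48, 4.33 and 4.48 at 6 h, 4.46, 4.45 and 4.39 at 12 h, and 2.68, 2.73 and 2.71 on the arrays labelled 24 h. Its scanner rise at 6 h was 3.14-fold (1.65 ± 0.047, limma adjusted p = 5.63e-10), and 1.66 ± 0.047 at 12 h. The other probe of Psmd7 gave 1.27 and 1.18, and the table gave 1.24 and 1.02. Psmd11, which braces the lid against the core, read 4.56, 4.58 and 4.58 at 0 h, 6.22, 6.07 and 6.20 at 6 h, 6.08, 6.16 and 6.01 at 12 h, and 4.64, 4.65 and 4.65 on the arrays labelled 24 h. It rose by 1.59 ± 0.051 and 1.51 ± 0.051. Psmd14, the deubiquitinase that strips ubiquitin chains from substrates, read 4.37, 4.35 and 4.42 at 0 h, 5.75, 5.61 and 5.68 at 6 h, 5.41, 5.43 and 5.33 at 12 h, and 4.34, 4.38 and 4.40 on the arrays labelled 24 h. Its rise was 1.30 ± 0.048 at 6 h and 1.01 ± 0.048 at 12 h by the scanner, with 1.17 and 0.98 in the table. Psmd3 stood at 5.81, 5.76 and 5.79 at 0 h, 7.09, 6.96 and 7.14 at 6 h, 6.87, 6.75 and 6.93 at 12 h, and 5.86, 5.88 and 5.86 on the arrays labelled 24 h, and Psmd12 at 4.28, 4.23 and 4.26 at 0 h, 5.60, 5.43 and 5.58 at 6 h, 5.46, 5.35 and 5.45 at 12 h, and 4.23, 4.22 and 4.23 on the arrays labelled 24 h. Both are structural subunits and rose at least 2-fold by the scanner at both times, Psmd3 by 1.27 ± 0.057 and 1.06 ± 0.057 and Psmd12 by 1.28 ± 0.051 and 1.16 ± 0.051. Of the rest, Psmd6 rose by 0.91 and 0.59, Psmd8 by 0.96 and 0.93, and Psmd13 by 0.43 and 0.36. In the table Psmd8 had the largest rise of the lid, 1.39 ± 0.059 and 1.52 ± 0.059.

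**Figure D2:**
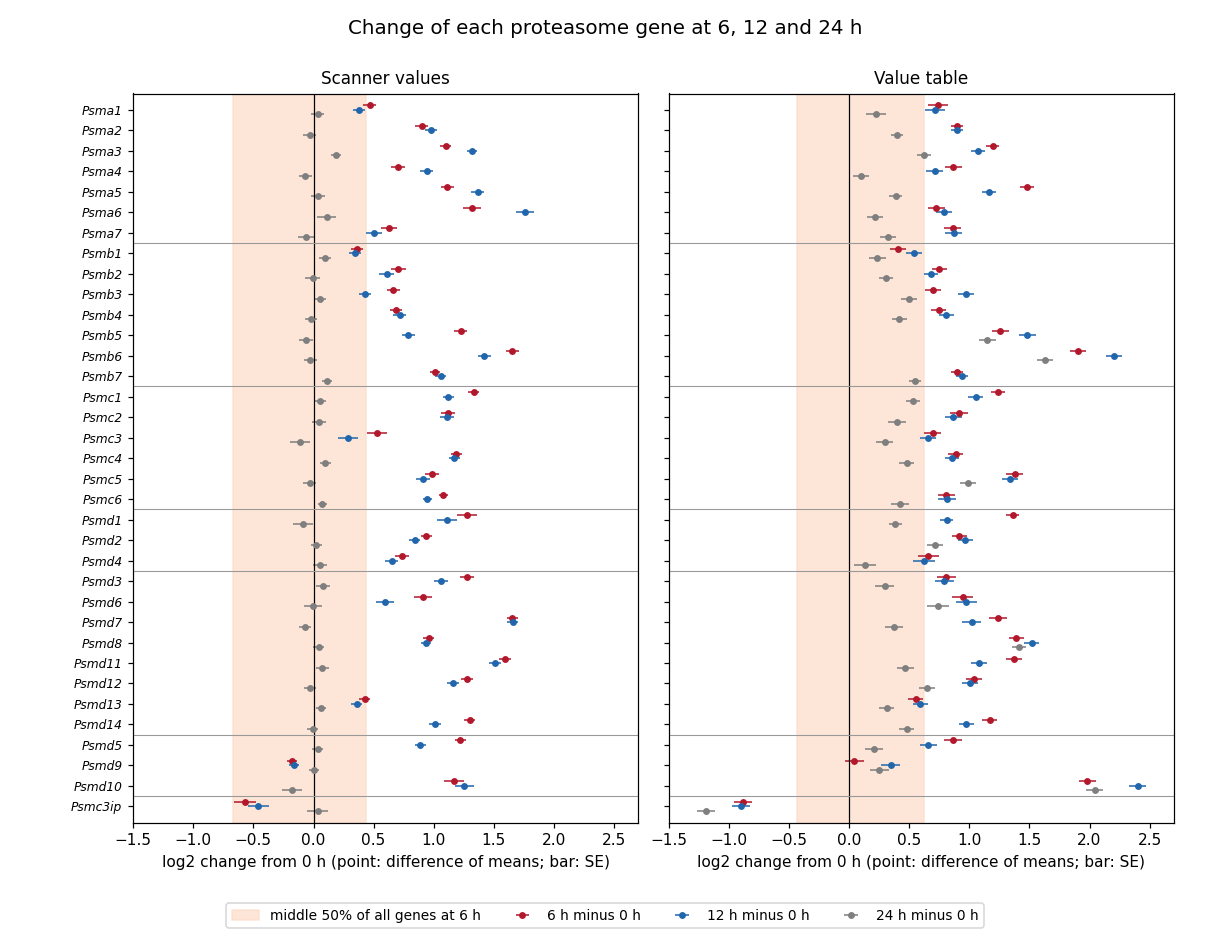
Log2 change from 0 h (points, with SE bars; n = 3 per time, 2 for Psma4 at 6 h in the scanner values) of each kept gene at 6, 12 and 24 h in the scanner values (left) and the value table (right), with lines between the role groups and a band for the middle 50% of all genes at 6 h. At 6 h 31 of the 35 genes lie to the right of the band in each source.

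The 3 chaperones of base assembly did not move alike. Psmd10, also called gankyrin, read 1.81, 1.73 and 1.77 at 0 h, 3.13, 2.78 and 2.90 at 6 h, 3.01, 3.12 and 2.95 at 12 h, and 1.60, 1.59 and 1.60 on the arrays labelled 24 h. Its arrays at 6 and 12 h were all above those at 0 h, with rises of 1.17 ± 0.081 and 1.25 ± 0.081. In the table it had the largest rise of the set at all 3 times, with log2 ratios of 0.02, -0.065 and 0.00 at 0 h, 2.11, 1.96 and 1.82 at 6 h, 2.43, 2.40 and 2.33 at 12 h, and 2.05, 1.99 and 2.05 in the columns labelled 24 h, which are changes of 1.98 ± 0.07, 2.40 ± 0.07 and 2.04 ± 0.07. Psmd5 read 2.33, 2.32 and 2.35 at 0 h, 3.61, 3.47 and 3.57 at 6 h, 3.20, 3.28 and 3.18 at 12 h, and 2.36, 2.39 and 2.34 on the arrays labelled 24 h, and it rose by 1.22 ± 0.045 at 6 h and 0.89 ± 0.045 at 12 h. Psmd9 was the exception, with scanner levels of 0.95, 1.05 and 0.97 at 0 h, 0.84, 0.76 and 0.83 at 6 h, 0.84, 0.79 and 0.85 at 12 h, and 1.03, 0.97 and 0.99 on the arrays labelled 24 h. It fell by a small amount in the scanner values, with -0.18 ± 0.043 at 6 h (limma adjusted p = 0.00368) and -0.16 ± 0.043 at 12 h (limma adjusted p = 0.00609). In the table it changed by 0.045 ± 0.078 at 6 h (limma adjusted p = 0.621) and rose by 0.35 ± 0.078 at 12 h (limma adjusted p = 0.0022), the opposite direction. These calls did not hold under every alternative: the table's 12 h change was -0.11 under quantile normalization, and with slide as a block the scanner changes of -0.14 at 6 h and -0.12 at 12 h did not pass (limma adjusted p = 0.0714 and 0.229). The other probe of Psmd9 gave -0.098 and 0.0081 by the scanner. Psmc3ip, the gene that is not a subunit, read -0.82, -0.88 and -0.81 at 0 h, -1.22, -1.62 and -1.39 at 6 h, -1.31, -1.32 and -1.26 at 12 h, and -0.84, -0.87 and -0.69 on the arrays labelled 24 h. It was lower at both times, with changes of -0.57 ± 0.089 and -0.46 ± 0.089 by the scanner and -0.88 ± 0.075 and -0.90 ± 0.075 in the table, and its 2 probes moved the same way. With slide as a block the 12 h scanner change of Psmc3ip was -0.20 and did not pass (limma adjusted p = 0.23).

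The catalytic subunits were set against their immunoproteasome counterparts, since those replace them in newly built proteasomes. All 3 immunoproteasome genes passed as higher at 6 and 12 h in the scanner values, beside 32.1% and 36.2% of all genes. At 6 h Psmb8 rose by 0.37 ± 0.053 (2 arrays, an outlier spot left out), Psmb9 by 0.22 ± 0.042 and Psmb10 by 0.60 ± 0.065. At 12 h they had risen by 1.23 ± 0.047, 1.82 ± 0.042 and at least 1.53, Psmb10 being saturated on all 3 arrays of that time. In the table, 2 of the 3 passed at 6 h and 3 at 12 h, Psmb9 not passing at 6 h, with changes for Psmb8 of 0.27 ± 0.083 and 0.71 ± 0.083, Psmb9 0.11 ± 0.055 and 0.55 ± 0.055, and Psmb10 1.03 ± 0.068 and 1.23 ± 0.068.

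Within each array, the immunoproteasome gene minus its counterpart shifted as follows in the scanner values. Psmb8 minus Psmb5 shifted by -0.88 at 6 h and 0.44 at 12 h against 0 h. For Psmb9 minus Psmb6 the shifts were -1.43, which may fall short since Psmb6 was saturated on 1 of the 3 arrays at 6 h, and 0.40. Psmb10 minus Psmb7 moved by -0.41 and, with Psmb10 saturated, by 0.47 or more. Each of these 6 shifts kept the arrays of the 2 times apart, with an exact two-sided permutation p of 0.1, the smallest the number of arrays allows, and 0.129 adjusted over 9 tests. In the table Psmb8 minus Psmb5 shifted by -0.99 and -0.77 and Psmb9 minus Psmb6 by -1.80 and -1.66, also at 12 h in favour of the constitutive gene, while Psmb10 minus Psmb7 shifted by 0.13 and 0.29 (exact two-sided permutation p = 0.1 each, 0.112 adjusted over 9 tests). For the first 2 pairs both sources therefore had the larger rise in the constitutive gene at 6 h, and at 12 h they differed in direction. For Psmb10 and Psmb7 they differed in direction at 6 h.

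**Figure D3:**
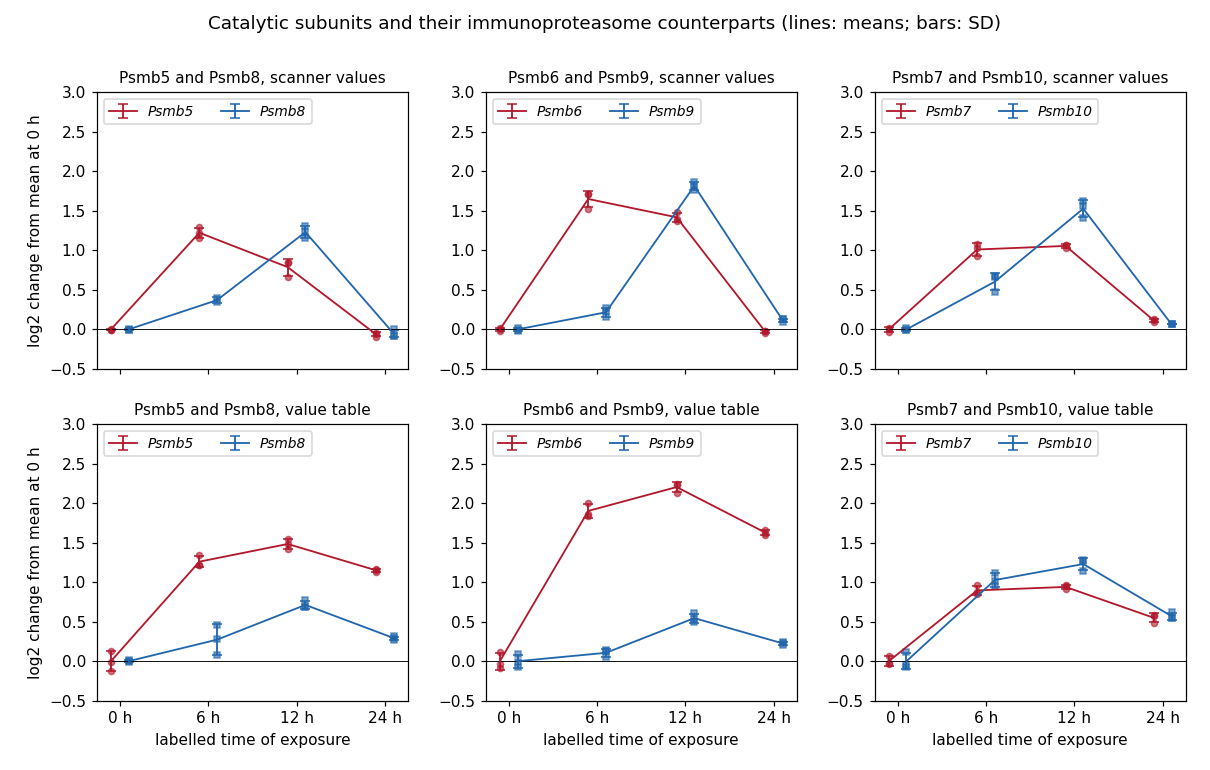
Log2 change from the mean at 0 h (y axis) by labelled time (x axis) for each catalytic subunit (red) and its immunoproteasome counterpart (blue), with a point for each array or column, lines through means and SD bars (n = 3, 2 for Psmb8 at 6 h in the scanner values). In the scanner values (top) Psmb5 and Psmb6 lie above Psmb8 and Psmb9 at 6 h and below them at 12 h, and in the value table (bottom) they lie above them at 6, 12 and 24 h.

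Between 6 and 12 h 21 of the 35 did not pass in either direction by the scanner, and 23 in the table. By the scanner 24 of the 35 had the larger mean change at 6 h and 11 at 12 h, and 4 passed as higher at 12 h against 6 h, beside 26.3% of all genes, and 10 as lower, beside 21.2%. The 4 were alpha-ring subunits, Psma3, Psma4, Psma5 and Psma6, and the 10 were Psmb3, Psmb5, Psmb6, Psmc1, Psmc3, Psmc6, Psmd3, Psmd5, Psmd6 and Psmd14. The largest of these shifts were 0.44 for Psma6 and -0.44 for Psmb5. In the table, 5 passed as higher, beside 31.1%, and 7 as lower, beside 16.9%, and 4 genes passed in opposite directions in the sources, Psma5, Psmb3, Psmb5 and Psmb6. Psmc1, Psmd5 and Psmd14 passed as lower in both. The table's shifts were all under 2-fold, whereas 3.07% of all genes were at least 2-fold higher there. Under quantile normalization 1 passed as higher by the scanner, beside 22.7% of all genes, and 26 as lower. The share of all genes passing as lower was not counted there. In the table all 12 calls were then lost, with 1.2% of all genes passing as higher. Without 6 h replicate 2, the array with 628 of the 732 outlier spots, the count of lower genes by the scanner was 17. In the table that count of 7 was 3 or 4 without 6 h replicate 1 or 2, without 12 h replicate 2 or 3, or without the columns labelled 24 h, and 15 with column medians set equal.

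Under the 24 h label the sources parted. In the scanner values 1 member passed as higher than at 0 h, Psma3 with 0.19 ± 0.043 (limma adjusted p = 0.0465), beside 2.29% of all genes, and the median was 0.033. That call was lost without any 1 array of 0 h or of the 24 h label, 6 h replicate 3 or 12 h replicate 1. The median member stood 0.00066, 0.026 and 0.034 above its 0 h mean on these 3 arrays. Against 12 h, 33 members passed as lower, beside 34% of all genes, 15 of them at least 2-fold lower, beside 12.9%, and 2 as higher, beside 41.2%. As the label could not be settled, this difference may not be a fall over time. In the table, 32 passed as higher than at 0 h, beside 41.3%, and 1 as lower, beside 31.2%, with a median of 0.40. The largest changes there were those of Psmd10, Psmb6, Psmd8 (1.41 ± 0.059) and Psmb5 (1.15 ± 0.069), the 4 members at least 2-fold higher, beside 13.3% of all genes. Psmc3ip was -1.19 ± 0.075, at least 2-fold lower. Against the 12 h columns 32 passed as lower, beside 32% of all genes, with a median of -0.43, all by under 2-fold, a size of fall that 3.17% of all genes reached. Psmc3ip passed in opposite directions in the sources against 12 h, with 0.49 by the scanner and -0.30 in the table. Under quantile normalization the table had 6 members higher than at 0 h, beside 10.7% of all genes, and lost all 32 calls against 12 h, and the scanner had 6 at least 2-fold lower than at 12 h. Leaving the arrays or columns labelled 24 h out of the fits kept 33 members higher at 6 h and moved no count of members higher than at 0 h by more than 1.5 times.

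**Figure D4:**
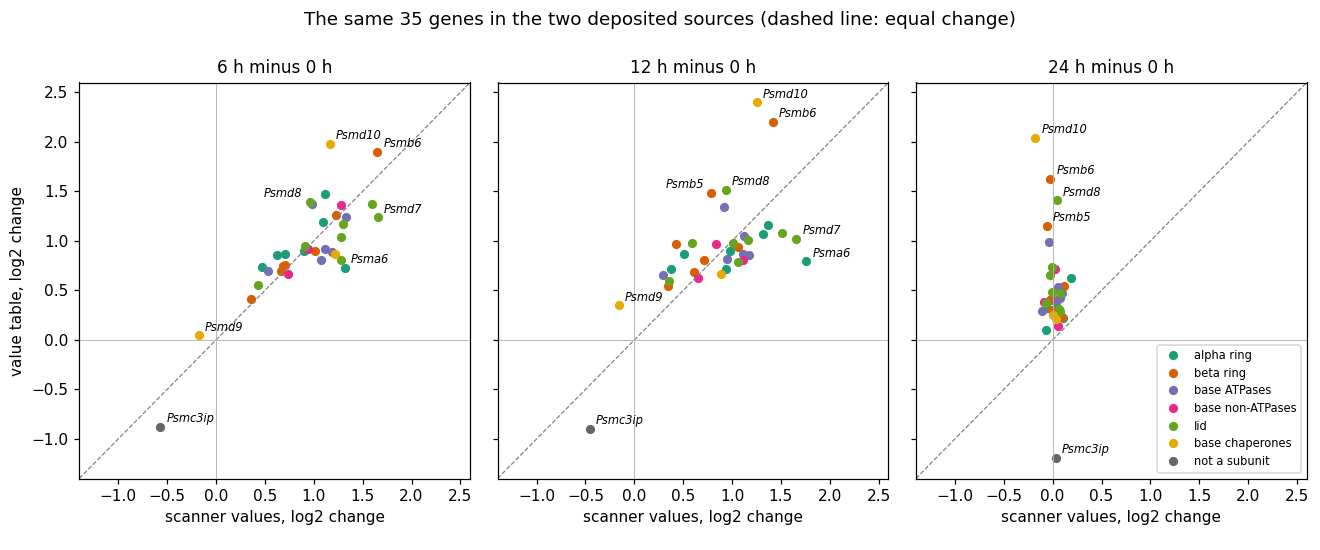
Log2 change from 0 h of the 35 kept genes in the scanner values (x axis) and the value table (y axis) at 6, 12 and 24 h, coloured by role, with a dashed line of equal change. At 6 and 12 h the genes lie on both sides of the line with Psmd10 and Psmb6 high in the table, and at 24 h they stand in a column near 0 on the scanner axis.

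Across the 35 genes the changes of the sources had a Pearson correlation of 0.83 and a Spearman correlation of 0.70 at 6 h, 0.62 and 0.61 at 12 h, and -0.32 and -0.12 at 24 h. These describe genes, which are not independent, in samples that carry the same labels. In both sources 11 genes rose at least 2-fold at 6 h, Psma3, Psma5, Psmb5, Psmb6, Psmc1, Psmd1, Psmd7, Psmd10, Psmd11, Psmd12 and Psmd14, which are 11 of 18 by the scanner and of 13 in the table. At 12 h 8 did so in both, of 15 and 11. The share of all genes that did so in both sources was not counted, so these counts do not show an agreement particular to the set.

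Slides allowed some comparisons within a batch. On slide 1, 6 h replicate 1 stood above the mean of the 3 arrays of 0 h for 33 of 35 members, with a median of 1.07. Of all genes 46.5% stood higher there, with a median of -0.067. On slide 2 the 2 arrays of 12 h differed from the 2 of 6 h by a median of -0.037, with 15 of 35 members higher. For all genes the median was 0.036, with 53.9% higher. On slide 3 the 3 arrays labelled 24 h differed from 12 h replicate 3 by a median of -0.94, with 2 members higher. The median of all genes was 0.037 there, with 51.7% higher. With slide as a block the scanner counts at 6 and 12 h remained 33 and 33 higher, beside 30.4% and 30.2% of all genes. No slide held arrays of both 0 h and 12 h. The blocked comparison of these times therefore rests on 6 h replicate 1, the only exposed array on the slide of 0 h.

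Genes that work beside the proteasome were taken from lists and are counted in the scanner values at 6 h and then 12 h. Of 10 other regulatory-particle subunits and associated factors 7 passed as higher at each time and 1 and 2 as lower, with medians of 0.83 and 0.55. Adrm1, a ubiquitin receptor of the base, rose by 1.14 ± 0.12 (2 arrays at 6 h) and 0.84 ± 0.10, Ubqln1, a shuttle that brings ubiquitinated proteins, by 1.41 ± 0.063 and 1.51 ± 0.063, and Rad23b, another shuttle, by 0.97 and 0.75. In the table, 9 of the 10 passed as higher at both times. Among 9 genes of ubiquitin, its activation and segregase factors 7 and 9 passed as higher, with medians of 0.63 and 0.83. Nploc4 rose by 1.29 and 1.39, Vcp, the ATPase it serves, by 1.00 and 0.82, and Uba6, a ubiquitin-activating enzyme, by 0.63 and 0.94.

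Among 6 measured genes of proteasome transcription control 4 and 5 passed as higher and 1 and 1 as lower, with medians of 0.75 and 0.80. Nfe2l1, which encodes NRF1, rose by 1.13 ± 0.065 at 6 h (limma adjusted p = 9.84e-08) and 1.02 ± 0.065 at 12 h by the scanner and by 1.44 ± 0.066 and 1.51 ± 0.066 in the table. The small MAF genes Maff and Mafg, whose products pair with NRF1 and NRF2, rose by 2.83 and 1.40 at 6 h and by 1.14 and 0.97 at 12 h by the scanner. In the table Maff rose by 3.25 at 6 h and 2.94 at 12 h, so the sources differed in how much of its rise was left at 12 h. Of the 6 genes 5 passed as higher in the table at each time, with medians of 1.37 and 1.17. Ngly1, the enzyme that removes sugars from NRF1 before it acts, named after its values were seen, was lower in the scanner values, -0.20 and -0.34, and did not pass in the table (-0.12 and 0.10). Of the core assembly chaperones Psmg1 and Psmg2, which dimerise to build the alpha ring, passed as lower at both times by the scanner, Psmg1 with -0.20 and -0.87 and Psmg2 with -0.34 and -0.85. In the table Psmg1 changed by -0.086 and 0.42 and Psmg2 by -0.54 and 0.011, so that the sources had Psmg1 passing in opposite directions at 12 h. Pomp, the maturation factor of the beta ring, rose by 0.42 ± 0.059 and 0.59 ± 0.059 and, in the table, by 0.80 ± 0.072 and 1.04 ± 0.072. Psmg4 and Ddi2 had no matched probe.

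Of 4 measured activators and inhibitors of the core 1 and 2 passed as higher by the scanner and 3 at each time in the table, with scanner medians of 0.081 and 0.26. Psme1, a subunit of the interferon-induced activator cap, rose by 0.67 ± 0.047 and 1.64 ± 0.047, and in the table by 0.67 and 0.88. Its partner Psme2 had no matched probe. Psme4, a nuclear activator, changed by 0.016 (limma adjusted p = 0.802) and rose by 0.53, and Psmf1, an inhibitor of the core, changed by -0.22 and -0.0038, neither passing. Of 7 genes that supply peptides to MHC class I, 5 passed as higher at each time by the scanner, with medians of 0.41 and 0.86. Tap1 and Tap2, the peptide transporter, rose by 0.61 and 0.41 at 6 h and by 2.38 and 1.41 at 12 h, but by 0.58 and 0.40 at 6 h in the table, where their 12 h changes of 0.068 and 0.065 did not pass. Tapbp, which holds empty class I molecules at the transporter, rose by 0.53 and 1.52.

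Complexes of a similar kind gave smaller medians. The COP9 signalosome, a relative of the lid, had 4 of 9 genes higher and 2 lower at 6 h and 5 and 2 at 12 h by the scanner, with medians of 0.18 and 0.27. The CCT chaperonin had 7 of 8 higher at 6 h and 6 at 12 h, with medians of 0.65 and 0.57. In the table these medians were 0.17 and 0.43 for the signalosome and 0.20 and 0.34 for the chaperonin. Of 11 cell cycle genes all 11 passed as lower at both times in both sources, with scanner medians of -1.31 and -1.42. All 7 response genes listed, Il6, Tnf, Il1b, Ccr7, Fscn1, Cd86 and Cd83, passed as at least 2-fold higher at 6 and 12 h in both sources.

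Markers of the cells such cultures hold were followed beside these results. All 8 dendritic cell markers were well above background at 0 h and 6 of them at 6 and at 12 h, and 2 passed as higher and 2 as lower at 6 h by the scanner. Their summed signal was 517.2 to 582.2 times the 75th percentile of the array at 6 h and 557.5 to 630.9 at 12 h, against 506.1 to 527.2 at 0 h. At 12 h 5 of them passed as higher and 2 as lower by the scanner, and 4 and 2 in the value table. Single scanner changes ran from -3.20 for Cd209a to 1.14 for Zbtb46 at 6 h. At 12 h those of the same 2 genes were -3.26 and 1.23, again the lowest and highest. Of 7 macrophage markers 1 was higher and 5 lower at 6 h, with a summed signal of 148.2 to 164.6 at 6 h and 274.9 to 302.4 at 12 h, against 167.6 to 167.8 at 0 h. At 12 h 3 of them passed as higher and 4 as lower, with a median change of -1.22, and 6 of 7 passed as lower in the value table, where the median was -1.59. The 7 granulocyte markers, 1 higher and 3 lower at 6 h, summed to 282.3 to 325.6 at 6 h and 334.9 to 382.6 at 12 h, against 293.1 to 301.2 at 0 h. At 12 h 4 of them were higher and 3 lower by the scanner, and 1 was higher and 4 lower in the value table, where the median was -1.13. Sums of 5 mast cell and basophil markers were 4.11 to 4.89 at 6 h, against 4.07 to 4.27 at 0 h, and those of 6 lymphocyte markers 0.82 to 0.96, against 1.31 to 1.41. Ms4a2 and Cd79a did not pass the filter, and Ly6g and Csf1r had no matched probe. The part of these shifts in the proteasome result was not tested.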

How the data were processed

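RNA of 12 dendritic cell cultures, 3 for each of 4 labelled times, was measured on 1-colour Agilent arrays. The deposited scanner files hold spot intensity, which the authors extracted with Agilent Feature Extraction 9.1.3.1 according to the submitters' processing notes. The deposited value table holds a ratio per probe, with the lowest value 0.01 and column medians of 1 at 0 h. Neither its scaling by the authors nor a genome build was given in the sources used here. Its direction was taken as time over 0 h. The columns of 0 h lie near a ratio of 1, which marks the reference but does not give the direction. Under this reading all 7 response genes were higher at 6 h in the table, as they were by the scanner.

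From the processed intensity, log2 values minus each array's 75th percentile were computed, control and outlier spots were left out, and spots of a probe were averaged. Probes well above background on every array of at least 1 group were kept, 23492 of 41174, and a gene was read from its brightest kept probe. Accessions were named through the RefSeq table, which named 22951 probes. The 4 group means were fitted on all 12 samples with limma 3.58.1 in R 4.3.3, with Benjamini-Hochberg adjustment over 18403 genes, and the table was fitted apart on log2 of the same probes' ratios. The fit was also run on simulated data that had the spread of 0 h at every time. The members' median SD by the scanner was 0.025 at 0 h and 0.0866 at 6 h. That run therefore cannot show how the fit handles unequal spreads. Depth is not defined for arrays, whose number limits the precision. Samples are described as independent experiments.

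Alternatives were normexp background correction (offset 50, on median spot signals, since mean signals were not used here), quantile normalization, the median as scale, dim-probe filters, probe averages, slide as a block, replicate number as a block, leaving out each array, and leaving out the 24 h label.

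Members, gene lists and tests were chosen with earlier results of these data known. Values per array are given for Psmb5, Psmb6, Psmb7 and each member at least 2-fold changed in the scanner fit. Members passing in opposite directions in the sources are named, and from each pathway list up to 3 genes with the largest change.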

Additional observations from a re-analysis of the deposited data

How the results depend on the processing

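The counts of members higher in the scanner values stayed at 33 at 6 h and between 28 and 33 at 12 h under the alternatives run. The share of all genes passing as higher lay between 17% and 36.6% at 6 h and between 20.2% and 39.6% at 12 h. It was not counted for the fits that left out 1 array. The members' median lay between 0.87 and 1.09 at 6 h and between 0.62 and 1.02 at 12 h. The table's medians were 0.50 to 0.93 at 6 h and 0.44 to 0.91 at 12 h. The causes of the shifts below were not tested. The counts below stand without the share of all genes and are no result about the members by themselves.

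Quantile normalization of the scanner values gave 1 member lower at 6 h, 5 at least 2-fold higher at 12 h, 1 higher and 26 lower at 12 h against 6 h, and 6 at least 2-fold lower at 24 h against 12 h. Its changes at 12 h were -0.075 for Psma1, -0.095 for Psmb1 and -0.0044 for Psmb3. In the table it gave 16 higher and 5 at least 2-fold at 6 h, 12 and 2 at 12 h, 6 and 2 under the 24 h label, and 0 higher and 0 lower at 12 h against 6 h and 0 lower at 24 h against 12 h. Its reversed table changes were -0.068 for Psmb1 and -0.067 for Psmd4 at 6 h, -0.042 for Psmb1, -0.17 for Psmd4 and -0.11 for Psmd9 at 12 h, and -0.26 for Psma1, -0.10 for Psma6, -0.19 for Psmb1 and -0.10 for Psmd9 under the 24 h label. The table's columns of 0 h lie near a ratio of 1, and this normalization gives every column a common spread. Whether that is why the table's calls were lost was not tested.

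With normexp 1 member was lower at 6 h, 0 higher at 24 h, 2 higher at 12 h against 6 h and 0 higher at 24 h against 12 h. With slide as a block 1 was lower at 6 h, 0 lower at 12 h, 0 higher at 24 h and 1 higher at 24 h against 12 h. The mean over a gene's probes gave 1 lower at 12 h and 0 higher at 24 h, and shifts of Psmb8 minus Psmb5 of 0.54 at 12 h and -0.0095 at 24 h. Without the filter on dim probes 0 were higher at 24 h. Column medians set equal gave 1 table member at least 2-fold lower at 6 h and at 12 h, 5 at least 2-fold higher at 12 h and 15 lower at 12 h against 6 h, and leaving out its columns labelled 24 h gave 3 there. Read from the table in place of the scanner, 1 member was lower at 6 h, at 12 h and at 24 h, 32 were higher at 24 h with 4 at least 2-fold higher and 1 at least 2-fold lower, and 0 were higher and 0 at least 2-fold lower at 24 h against 12 h. On the coding strand only, TGACNNNGC was in 3 members' promoters. Leaving out 1 array each, the scanner count higher at 24 h was 0 to 1, that lower at 12 h against 6 h was 8 to 17, and the table's was 3 to 8. With replicate number as a block the scanner count higher at 24 h was 0, and no other count of members moved by over 1.5 times. The samples share only a number: deviations of same-numbered samples correlated above 0.1 in 2 of 18 pairs by the scanner and 1 of 18 in the table.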
